A study of Rattus norvegicus with 8 samples.

Results

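The S100 genes encode small calcium-binding proteins, and 9 of them were followed here in sorted retinal cells that had received a Klf4 plasmid or a control plasmid. They were S100b, S100a1, S100a3, S100a4, S100a6, S100a10, S100a11, S100a13 and S100a16. The members were chosen by the log2 signals of S100b, which read higher with Klf4, so the S100b values below are a description with no test. The other members were listed with earlier results of these data known. Gene probes were assigned to a member where their accession, without its version, was a RefSeq transcript of that rat symbol. This gave 10 probes of 45598 gene probes on the array, 2 for S100b and 1 for each other member, and 9 genes of 16581 with a symbol. Klf4 samples were GFP-positive cells sorted 39 hours after in vitro electroporation of postnatal day 0 Lister hooded rat retinas with a plasmid encoding Klf4, a zinc-finger transcription factor (4 arrays). Control samples were GFP-positive cells from retinas electroporated with a control plasmid, cultured and sorted in the same way (4 arrays). All explants were cultured under orbital agitation and dissociated with trypsin, and the sources used here name neither the promoter of either plasmid nor the number of retinas behind an array. The 4 arrays of each group are numbered 2 to 5, and nothing in the labels says that they came from separate animals, and any p-value therefore reflects only how far these samples spread, possibly for technical reasons.

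S100 proteins fold into a pair of EF hands, the loops that hold calcium, and most work as dimers that bind a target protein once calcium is bound. S100b is the classic glial member, found in astrocytes, Muller glia and Schwann cells, and it is also released and can bind the receptor RAGE. S100a10, also called p11, has lost the ability to bind calcium and forms a complex with annexin A2 at membranes, while S100a11 binds annexin A1. S100a4 binds non-muscle myosin, S100a6 (calcyclin) binds the ubiquitin ligase partner Cacybp, S100a1 is known from muscle and brain, S100a13 assists the release of Fgf1, S100a3 is best known from the hair cuticle, and S100a16 is a widely expressed member.

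Signals are Agilent 1-colour intensities on the log2 scale, after subtraction of each array's 75th percentile over gene probes. A value of 0 therefore equals that percentile, and levels of different probes are not compared with each other. That percentile was an intensity of 787 to 1564 on the Klf4 arrays and 732 to 1718 on the control arrays. Both arrays with the number 5 were scanned in a separate session from the other 6, called the second scan here, and both numbered 4 lay outside the scanner software's quality limits. All Klf4 arrays lay in slide columns 2 and 4 and all controls in columns 1 and 3, so column and plasmid cannot be told apart. The probe of the targeted gene Klf4 read -3.70 to -1.74 on the Klf4 arrays and -3.87 to -2.45 on the control arrays. Its difference of 0.27 was within the replicate spread (SE 0.46, limma adjusted p = 0.916). Whether the insert contains the sequence of this probe is not stated in the labels, so the probe cannot serve as a check on them. All 12 genes fixed as retinal identity markers, among them Otx2 and Pax6, were well above background on all 4 arrays of both groups.

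Promoter windows of the members that were higher on every Klf4 array than on any control array are shown for orientation, as the members whose groups were separate. A window covers 250 bases before to 50 bases after the annotated start, from RefSeq on build GRCr8, and 7 of the 9 members had one (all but S100a1 and S100a10). Capitals mark CACCC and GGGCGG on either strand, short motifs of the kind KLF and related zinc-finger proteins bind. S100b lies at chr20:12381032-12381331 on the minus strand, S100a11 at chr2:181874882-181875181 and S100a4 at chr2:178388279-178388578, both on the plus strand.
S100b: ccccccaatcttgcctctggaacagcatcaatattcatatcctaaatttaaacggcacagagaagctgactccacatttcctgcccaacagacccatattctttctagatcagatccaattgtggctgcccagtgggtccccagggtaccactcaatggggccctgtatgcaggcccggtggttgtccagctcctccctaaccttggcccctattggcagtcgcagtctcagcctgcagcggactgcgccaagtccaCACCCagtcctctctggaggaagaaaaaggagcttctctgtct
S100a11: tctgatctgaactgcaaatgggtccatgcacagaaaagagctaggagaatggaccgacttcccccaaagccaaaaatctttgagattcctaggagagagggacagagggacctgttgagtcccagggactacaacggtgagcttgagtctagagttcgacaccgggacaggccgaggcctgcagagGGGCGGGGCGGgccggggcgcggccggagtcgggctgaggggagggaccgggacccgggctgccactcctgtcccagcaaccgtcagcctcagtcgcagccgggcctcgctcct
S100a4: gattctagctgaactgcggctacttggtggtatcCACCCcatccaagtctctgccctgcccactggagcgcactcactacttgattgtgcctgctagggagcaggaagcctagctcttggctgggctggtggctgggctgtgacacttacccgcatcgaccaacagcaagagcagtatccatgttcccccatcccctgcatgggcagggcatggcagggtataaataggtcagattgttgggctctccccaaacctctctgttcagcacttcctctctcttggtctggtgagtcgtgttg
S100b and S100a4 each held 1 CACCC, and S100a11 held 2 GGGCGG that overlap by the last base of the first. CACCC was present in 5 of the 7 member windows, against 54.9% of 33469 RefSeq promoters of the same length. GGGCGG was present in 4 of the 7, against 33.1% of all promoters. These matches are letters in a window and not measured binding.

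Of the 8 members other than S100b, 1 rose with Klf4 (S100a11), 0 fell and 7 did not pass the test. Over all 29988 genes and features tested, 3.20% were called higher and 0.467% lower. At an unadjusted p under 0.05, 4 of the 8 were higher (S100a11, S100a16, S100a4 and S100a10) and 0 lower, against 6.63% and 5.30% of all features. For 3 of the 8 (S100a4, S100a10 and S100a11) every Klf4 array lay above every control array, and for 0 below, against 5.74% and 4.47% of all features. The median log2 difference of the 8 was 0.96, beside -0.07 over all features. Since the 8 were listed with earlier results of these data known, these counts and this median are a description of the list. The 4 other S100 genes tested, which are not among the members, had a median of -0.09, with 1 above 0 and 3 below. All 9 members passed the filter on dim probes, which asks for signal well above background on 3 or 4 arrays of 1 group. S100b passed it through the Klf4 arrays only. In RNA from a sorted population, more cells of a type and more RNA per cell cannot be told apart.

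**Figure D1:**
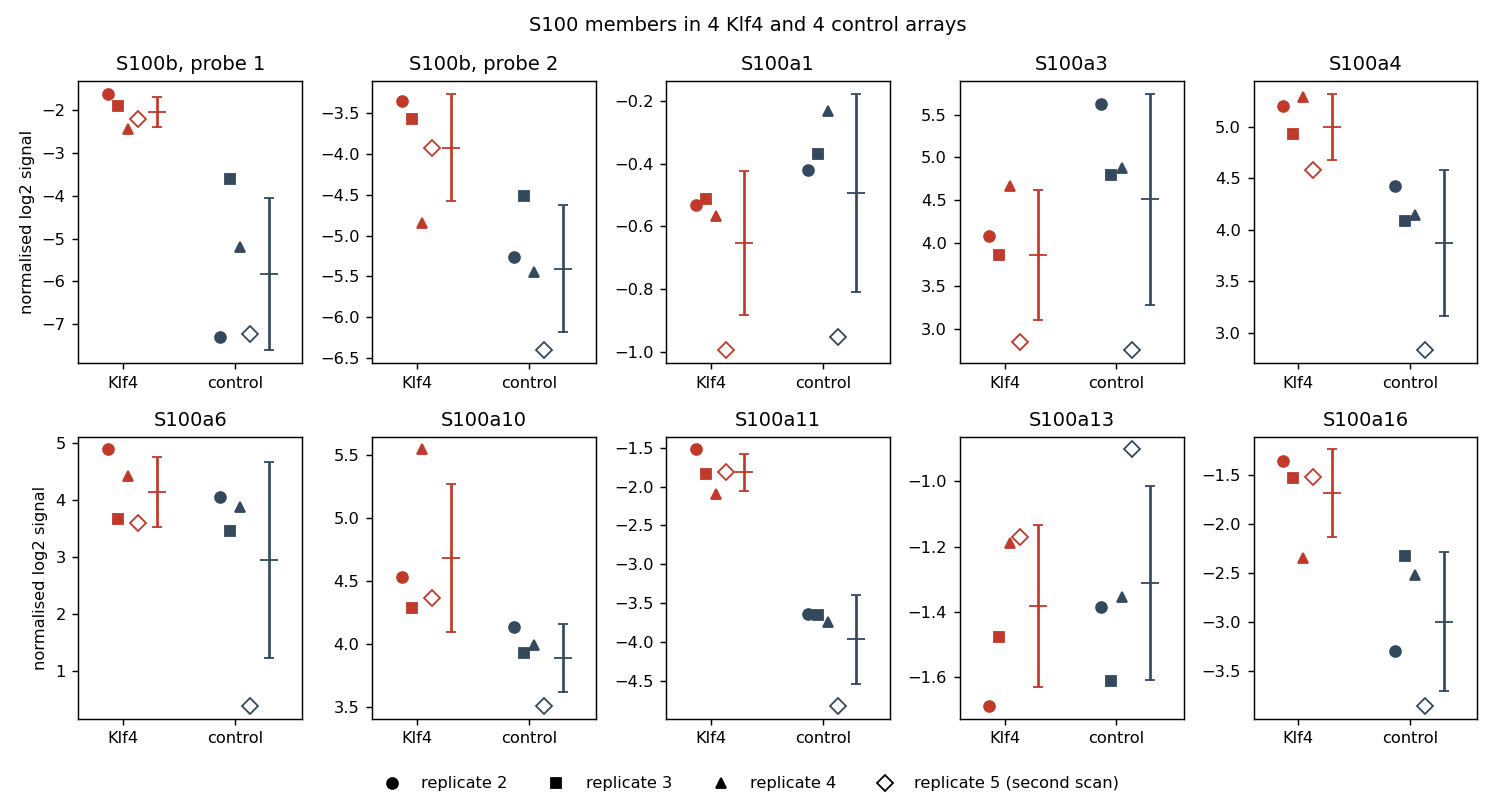
Normalised log2 signal of each member probe on the 4 Klf4 arrays (left, red) and the 4 control arrays (right, dark blue), with the mean and SD beside the points. Marker shape gives the replicate number, and open diamonds are replicate 5, of the second scan. S100b probe 1, S100a4, S100a10 and S100a11 show no overlap between groups, and control replicate 5 is the lowest control for 7 of the 9 genes.

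S100b stood far higher with Klf4 on the probe that represents the gene, chosen as the one with the higher mean over all 8 arrays. It read -1.61, -1.89, -2.43 and -2.21 on Klf4 replicates 2, 3, 4 and 5, against -7.30, -3.61, -5.19 and -7.25 on the controls in the same order. All 4 Klf4 arrays lay above the highest control, replicate 3, and the Klf4 values were close together while the controls spread widely. The means were -2.04 ± 0.36 with Klf4 and -5.84 ± 1.78 in controls (SD, n = 4 each), a log2 difference of 3.80 or 13.9-fold. The probe has 10 spots per array, and it was well above background on all Klf4 arrays but on only 2 of the 4 control arrays, replicate 3 and, with 60% of its spots, replicate 4. The fold thus rests on control signals at the edge of detection: with each array's dim values raised to its lowest signal well above background the difference was 3.06, and with normexp background correction it was 1.85.

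The other S100b probe moved less. It read -3.35, -3.56, -4.84 and -3.93 on the Klf4 arrays, against -5.26, -4.51, -5.44 and -6.40 on the control arrays. Here Klf4 replicate 4 lay below control replicate 3, so the groups overlapped. The log2 difference was 1.49, or 2.80-fold, and the probe was well above background on 3 Klf4 and 2 control arrays. The probes agreed in direction but lay more than 1 apart on the log2 scale. Within the first scan the probe that represents the gene differed by 3.39 and in the second, with 1 array per group, by 5.03.

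S100a11, the partner of annexin A1, was the member that passed the test. Its signal was -1.52, -1.84, -2.09 and -1.81 on Klf4 replicates 2 to 5, against -3.64, -3.65, -3.74 and -4.82 on the controls. Every Klf4 array lay well above the highest control. The means were -1.82 ± 0.23 with Klf4 and -3.96 ± 0.57 in controls (SD, n = 4 each), and S100a11 rose by 2.15 on the log2 scale (SE 0.28, limma adjusted p = 0.00349), or 4.42-fold. In the first scan alone, with 3 arrays per group, it rose by 1.86 (SE 0.17, limma adjusted p = 0.00557), and the second scan gave 3.01. The assembly annotates 5 pseudogenes and 2 like-named genes of S100a11 (S100a11l1 and S100a11l2), and which of these copies the probe could also bind was not tested.

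S100a10, the annexin A2 partner, read 4.54, 4.29, 5.55 and 4.37 on the Klf4 arrays, against 4.14, 3.93, 3.99 and 3.51 on the control arrays. The groups did not overlap, and Klf4 replicate 4 stood highest. The difference of 0.79 did not pass (SE 0.29, limma adjusted p = 0.283), nor did it once the scan was a block (adjusted p = 0.193). The first scan gave 0.77 and the second 0.86. Leaving out 1 array gave 0.50 (Klf4 replicate 4, outside the quality limits) to 0.92 (Klf4 replicate 3), and array weights gave 0.42.

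S100a4, the myosin-binding member, gave 5.20, 4.93, 5.28 and 4.57 with Klf4, against 4.43, 4.08, 4.14 and 2.83 in controls. All Klf4 arrays lay above all controls, and in both groups replicate 5 was the lowest. The difference of 1.13, or 2.18-fold, did not pass over all 8 arrays without a block or array weights (SE 0.34, limma adjusted p = 0.167). With the scan as a block the same difference passed (adjusted p = 0.0157), as it did in the first scan alone (0.92, SE 0.16, limma adjusted p = 0.0473), where the Klf4 arrays averaged 5.14 ± 0.18 and the controls 4.22 ± 0.18 (SD, n = 3 each). The second scan gave 1.75.

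S100a6, the Cacybp-binding member, had 4.90, 3.67, 4.43 and 3.60 on the Klf4 arrays, against 4.05, 3.47, 3.88 and 0.39 on the control arrays. The groups overlapped, and control replicate 5 stood alone, over 3 log2 units below the next control. The difference of 1.20 (SE 0.78, limma adjusted p = 0.661) fell to 0.35 without that array, and it was 0.53 in the first scan against 3.21 in the second.

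S100a16 read -1.36, -1.53, -2.35 and -1.52 with Klf4, against -3.29, -2.32, -2.52 and -3.85 in controls. The groups overlapped only between Klf4 replicate 4 and control replicate 3. The difference of 1.31, or 2.48-fold, did not pass (SE 0.37, limma adjusted p = 0.122). It was 0.97 in the first scan (adjusted p = 0.355) and 2.33 in the second.

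**Figure D2:**
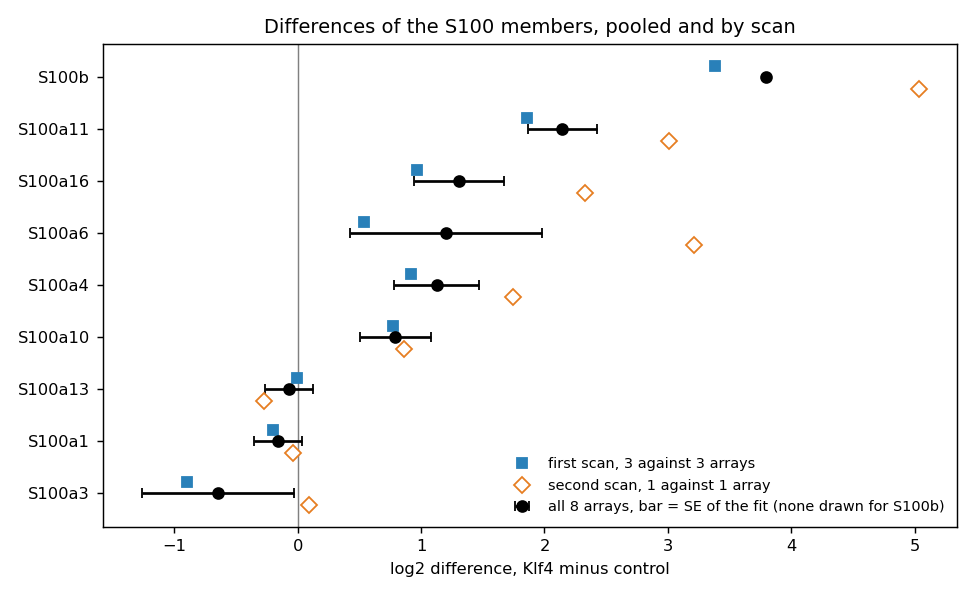
Log2 difference, Klf4 minus control, of each member over all 8 arrays (black circles, with the SE of the limma fit except for S100b), in the first scan alone (blue squares, 3 against 3 arrays) and in the second (open orange diamonds, 1 against 1). The second scan gave the larger positive difference for S100b, S100a11, S100a16, S100a6, S100a4 and S100a10.

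The remaining members showed no rise. S100a3 gave 4.08, 3.86, 4.66 and 2.84 on the Klf4 arrays, against 5.62, 4.79, 4.88 and 2.75 on the control arrays. On replicates 2, 3 and 4 each Klf4 value lay below every control of those numbers, while on replicate 5 both groups were low and nearly equal. The difference of -0.65 did not pass (SE 0.62, limma adjusted p = 0.796). That of the first scan alone also missed the adjusted threshold (-0.90, SE 0.30, limma adjusted p = 0.307). How many of all features separated in this way within the first scan was not counted.

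S100a1 read -0.53, -0.51, -0.57 and -0.996 with Klf4, against -0.42, -0.37, -0.23 and -0.95 in controls. The groups overlapped, with replicate 5 lowest in each, and the difference of -0.16 did not pass (SE 0.19, limma adjusted p = 0.858). S100a13 read -1.69, -1.48, -1.19 and -1.17 with Klf4, against -1.38, -1.61, -1.35 and -0.90 in controls. Here replicate 5 was the highest array of each group, and the difference of -0.07 did not pass (SE 0.19, limma adjusted p = 0.960).

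The arrays numbered 5 stood low for many members. Control replicate 5 was the lowest control for 7 of the 9 members (all but S100b and S100a13), against 42.3% of all 29765 genes and features measured on every array. Among the Klf4 arrays, replicate 5 was lowest for 4 members (S100a1, S100a3, S100a4 and S100a6), against 27.3% of all. Control replicate 5 minus the mean of the other controls was -3.41 for S100a6, and only 0.0370% of all features had a larger drop. The gap was -2.35 for S100a3, -1.88 for S100b and -1.39 for S100a4, with a median of -0.03 over all features. The part of the scan in these gaps was not tested, since it holds 1 array per group.

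The S100a genes form a cluster on rat chromosome 2. On GRCr8 the order runs S100a1, S100a13, S100a14, S100a16, S100a3, the pseudogene S100a2, S100a4, S100a5, S100a6, S100a7a, S100a8 and S100a9. S100a11 and S100a10 lie farther along, with 77 genes between S100a11 and the S100 gene before it. S100b lies on chromosome 20. In gene order the differences were -0.16 for S100a1, -0.07 for S100a13, 1.31 for S100a16, -0.65 for S100a3, 1.13 for S100a4, -0.72 for S100a5 and 1.20 for S100a6. None of these 7 passed over all 8 arrays without a block or array weights, so their signs are values only. S100a4 passed with the scan or the replicate number as a block and with array weights. S100a16 and S100a5 passed with array weights alone.

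**Figure D3:**
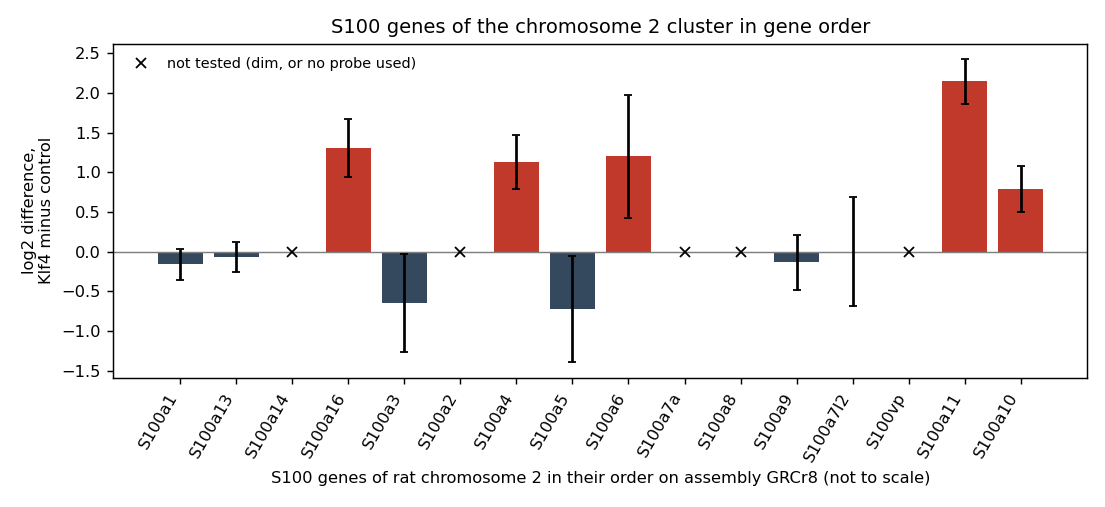
Log2 difference, Klf4 minus control, of the S100 genes of chromosome 2 from S100a1 onward, in gene order and not to scale. S100z, which lies before S100a1 on this chromosome, is not drawn. Bars start at 0 and error bars are the SE of the limma fit. Crosses mark genes with no tested probe. S100a11, at 2.15, is the tallest bar.

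Beyond the 9 members, 8 of 10 other S100 genes sought had a probe, and 4 of these passed the filter on dim probes. With limma 0 of the 4 changed, against 3.20% called higher and 0.467% lower over all features. At an unadjusted p under 0.05 the count was also 0, against 6.63% and 5.30%. With only 4 genes these counts say little. S100a5, the neighbour of S100a4 and S100a6, followed the arrays much as S100a3 did. It read 2.70, 2.44, 3.73 and 1.25 with Klf4, against 4.20, 3.64, 3.69 and 1.48 in controls. Replicates 2 and 3 were lower with Klf4 and both replicates 5 were low, and the difference of -0.72 did not pass (SE 0.67, limma adjusted p = 0.790). The granulocyte gene S100a9 differed by -0.14 (SE 0.34, adjusted p = 0.954), S100z by -0.05 and S100a7l2 by less than 0.001. S100a8, which pairs with S100a9, was well above background on 0 Klf4 and 2 control arrays, S100g on 1 and 2, and S100a7a and S100vp on 0 and 0. S100a14 and S100p had no probe under these symbols.

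Genes tied to S100 proteins, as binding partners, receptors or handlers of calcium and actin, were taken from a list of 40, of which 33 were tested. Of these 5 rose, 0 fell and 28 did not pass, against 3.20% called higher and 0.467% called lower over all features. At an unadjusted p under 0.05, 7 were higher and 0 lower, against 6.63% and 5.30% of all features. Their median difference was 0.05, beside -0.07 over all features. The list was drawn up with earlier results of these data known, so its counts are a description and not a test. Among the 5 that rose, Anxa1 and Atp2a1 entered through the Klf4 arrays only. The largest rises were annexins, membrane-binding proteins that include the partners of S100a11 and S100a10. Anxa2 read 2.46, 2.15, 1.26 and 2.26 on the Klf4 arrays, against -2.69, -1.03, -1.56 and -3.61 on the control arrays, with no overlap. It rose by 4.25 (SE 0.54, limma adjusted p = 0.00316), while its partner S100a10 differed by 0.79.

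Anxa1, the partner of S100a11, rose by 9.71 (SE 0.93, limma adjusted p = 0.000704) and was well above background on 4 Klf4 arrays and 1 control array. It thus entered the test through the Klf4 arrays only, and its difference was 7.51 with normexp. Anxa5, another annexin, rose by 3.54 (SE 0.31, adjusted p = 0.000502), with -0.72 to 0.51 on the Klf4 arrays and -3.95 to -2.93 on the controls. Atp2a1, a calcium pump of the sarcoplasmic reticulum, rose by 2.57 (SE 0.40, adjusted p = 0.00914), from a probe well above background on 3 Klf4 arrays and 1 control array. Atp2a1 too entered the test through the Klf4 arrays only. Its call was lost with normexp (0.84, adjusted p = 0.152) and with dim values raised to the background limit (adjusted p = 0.0561). Tagln2, an actin-binding protein, rose by 1.53 (SE 0.29, adjusted p = 0.0255). It lost the call on the 6 arrays of the first scan (1.55, adjusted p = 0.0789), with the percentile taken over spots (adjusted p = 0.0518), and when any 1 of Klf4 replicates 2, 3 and 5 and control replicates 2, 3 and 4 was left out (adjusted p of 0.0731 to 0.0926).

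Other partners of the members did not pass. Ager, which encodes RAGE, differed by -0.34 (SE 0.17, limma adjusted p = 0.526), Cacybp by 0.23, the S100a4 target Myh9 by 0.36 and Fgf1 by -0.05. Gfap, the filament protein of astrocytes, differed by -0.40 (adjusted p = 0.667) on 3 Klf4 arrays, since its single spot was left out on replicate 4, and 4 controls. Ahnak, Ryr1 and Stk38 had no probe under these symbols, and Tlr4, Trpv5, Trpv6 and Ryr2 were too dim to test.

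**Figure D4:**
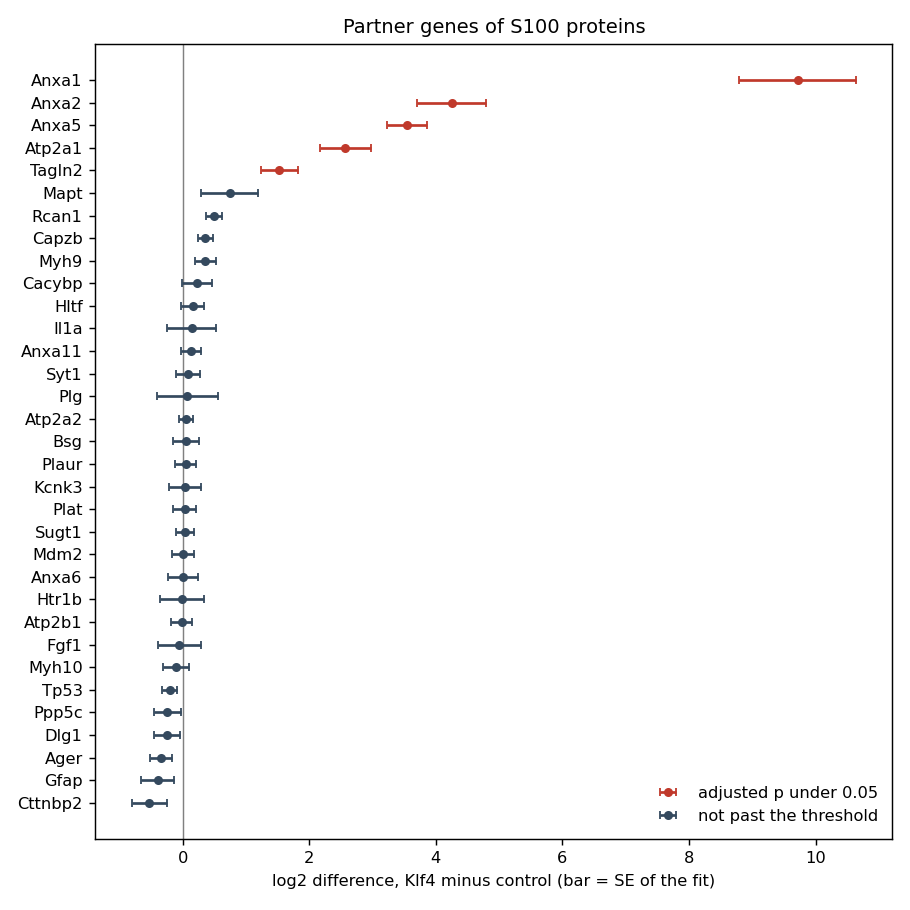
Log2 difference, Klf4 minus control, of the 33 tested partner genes, with the SE of the limma fit; red points passed the adjusted p threshold of 0.05. The 5 red points are Anxa1, Anxa2, Anxa5, Atp2a1 and Tagln2, all positive. Anxa1 and Atp2a1 entered the test through the Klf4 arrays only.

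Among 13495 other genes with a symbol, Anxa2 lay nearest to S100b over the 8 arrays. Each gene's control mean was subtracted, and the Euclidean distance to S100b was taken, so the measure uses the contrast that chose S100b and is a description. It also rests on background readings, since 0% of the S100b spots were well above background on control replicates 2 and 5. The distance was 1.79 for Anxa2, 1.93 for the plasma membrane calcium pump gene Atp2b2, 1.98 for the neuropeptide precursor gene Vgf, 2.22 for Cpeb1, a regulator of translation, and 2.25 for Bcl3, a cofactor of NF-kappaB. Their differences were 4.25, 3.33, 2.98, 3.88 and 4.16 in that order. Cpeb1 was well above background on 1 control array, and Atp2b2 and Vgf on 3. All 5 had control replicate 5 as their lowest control.

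**Figure D5:**
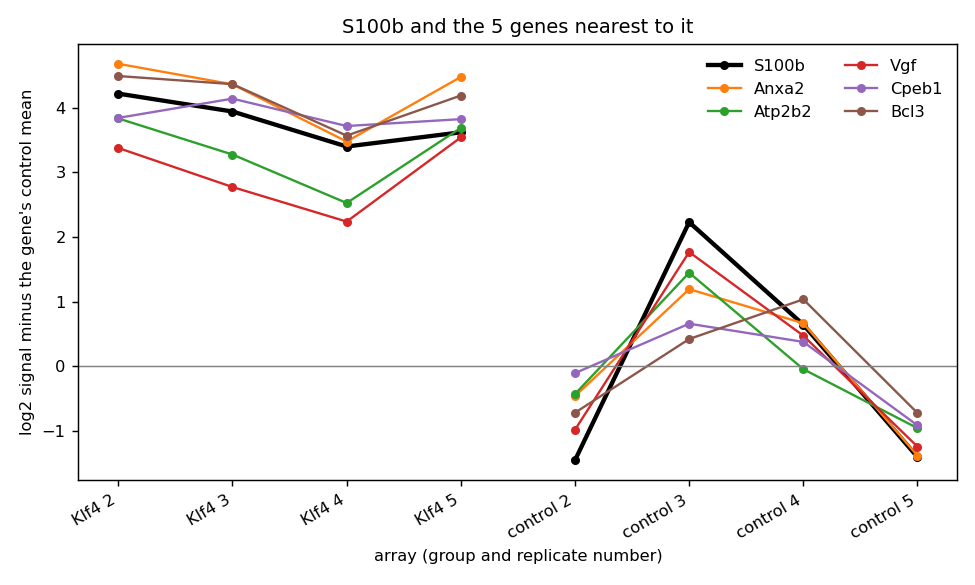
Log2 signal minus the gene's own control mean on the 4 Klf4 arrays (left) and 4 control arrays (right) for S100b (thick black line) and its 5 nearest genes. S100b, Anxa2, Vgf, Atp2b2 and Cpeb1 share their highest control, replicate 3.

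Markers of cells that carry S100 genes were read beside these results, from lists drawn up with earlier results of these data known. The counts here and in the next paragraph stand beside 3.20% called higher and 0.467% lower over all features. At an unadjusted p under 0.05 those shares were 6.63% and 5.30%. Of 9 tested Muller glia markers 1 rose, Vim (1.14, limma adjusted p = 0.0129), and 0 fell, while Glul differed by 0.13 and Rlbp1 by 0.17. Differences were above 0 for 4 of the 9 and below 0 for 5, with a median of -0.07. The lowest were Clu at -0.95 and Apoe at -0.55. The count of markers past the threshold was 0 in the first scan alone and without control replicate 2 or 4, and 3 with array weights. The list's mean signal was 1.77 to 2.25 on the Klf4 arrays and 1.81 to 2.27 on the control arrays. Of 7 astrocyte markers 0 changed with limma, and 1 was lower at an unadjusted p under 0.05 (mean -2.97 to -2.25 with Klf4, -2.90 to -2.38 in controls). In the Schwann cell and oligodendrocyte list 1 of 7 rose, Pmp22 by 2.27, while Sox10 did not pass. The mean was -0.12 to 0.12 with Klf4 and -0.68 to -0.28 in controls, and the median difference was 0.19.

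Fibroblast and pericyte markers, relevant to S100a4 and S100a6, had 2 of 6 higher, Col1a1 by 1.36 and Cspg4 by 1.62. Pdgfrb was at -0.86 and Col1a2 at -0.47, and Dcn and Lum were too dim on all Klf4 arrays. The mean was -1.18 to -0.68 with Klf4 and -1.51 to -1.05 in controls. The median difference was -0.14, with 4 of the 6 below 0. In the endothelial list 2 of 6 rose, Tek by 2.38 and Esam by 3.35, while Kdr and Cdh5 did not pass. The mean was -0.33 to 0.27 with Klf4 and -1.11 to -0.77 in controls, but the median difference of the list was 0.08. Esam was well above background on 3 Klf4 and 0 control arrays, so it entered the test through the Klf4 arrays only. The endothelial count was 1 with normexp, with the filter on all 4 arrays of a group and in the first scan alone. Of 8 microglia and myeloid markers 1 rose, C1qb by 1.04, and Ptprc was at background on all 8 arrays (mean -1.73 to -0.82 with Klf4, -1.96 to -1.17 in controls). That count was 0 with the percentile over spots, without Klf4 replicate 2 or 3, without control replicate 2 or 4, and without both arrays numbered 4. The median difference of the myeloid list was 0.07, with 4 of the 8 above 0 and 4 below, the lowest being Lyz2 at -0.38. Of 7 epithelial markers 2 rose, Krt19 by 2.69 and Krt8 by 3.34, while Cdh1, Krt5 and Krt14 did not pass. The mean was -2.52 to -2.28 with Klf4 and -3.69 to -3.12 in controls, but the median difference of the list was 0.06. Krt8 was likewise well above background on 3 Klf4 and 0 control arrays, and the epithelial count was 1 with normexp, with raised dim values and with the filter on all 4 arrays. Of 12 retinal identity markers 2 fell, Crx and Rbp3, with a mean of 1.57 to 1.79 with Klf4 and 2.0 to 2.11 in controls. That count was 0 without control replicate 2, 3 or 4 and without both arrays numbered 4, and 1 in the first scan alone, with the replicate or slide row block, without the filter, and when Klf4 replicate 2 or 3 or control replicate 5 was left out. It was 5 with array weights and 4 once the scan was a block. The part of any such cells in the S100 values was not tested.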

How the data were processed

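Per the file headers, the authors' deposited intensity values are Agilent Feature Extraction 10.7.3.1 signals, background-subtracted and detrended, from 1-colour (Cy3) arrays on 1 slide, and not scaled between arrays. Among other columns, the deposited files flag control spots, outliers, saturation and signal well above background. The authors also deposited a table of log2 values with equal quantiles (column medians of 7.54; r of 0.994 to 1.00 across probes with the column's own array), by an unstated method; it served as an alternative.

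After removal of controls and outliers, spots of a probe were averaged on the log2 scale and scaled to each array's 75th percentile over gene probes. The percentile was first taken over gene spots; it was changed after the calls had been seen and set against an earlier account of these data, whose counts the present scaling nearly matches, and the first version is kept as an alternative. A probe counted as well above background on an array where at least 50% of its spots were, a rule set with the files in hand. Genes were represented by the kept probe with the highest mean. Symbols came from RefSeq (assembly GRCr8), where 21109 of 45598 gene probes had 1 symbol and 24489 had none; the headers name another build, rn4, so no probe coordinates are given. Groups were compared with limma 3.58.1 (lmFit, eBayes; R 4.3.3), by a two-sided test without covariates, with Benjamini-Hochberg adjustment over all genes, at a threshold of 0.05. The fit was tested on simulated data. Files hold no mean spot signal, so normexp (offset 50) used the median signal.

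Named genes were the 9 members, the other S100 genes, the partner genes past the threshold with Anxa2, Ager, Ahnak and Gfap, the 5 genes nearest to S100b, and Klf4; partners shown as values beyond that rule (Cacybp, Myh9, Fgf1) and single markers were chosen after their values were seen. Members and lists were chosen with earlier results of these data known. Counts of members called leave out S100b, which chose the family. Figures were drawn with matplotlib 3.10.9. The alternatives were another scaling, background correction, filter, probe rule or source of values, the scan, slide row or replicate number as a block, the first scan alone, array weights, and leaving out arrays.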

Additional observations from a re-analysis of the deposited data

Results flagged for a closer look

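A sample was marked where it lay apart from the 3 others of its group by more than chance allows in about 1 of 20 groups, and 4 marks came from 42 groups checked. S100a6 on control replicate 5 read 0.39, with the next control at 3.47. S100a11 on control replicate 5 read -4.82, with the next at -3.74, and this array is also its only one with under 100% of the probe's spots above background among the controls (70%). S100a1 on Klf4 replicate 5 read -0.996, with the next at -0.57. Klf4 replicate 5 and control replicate 5 are the 2 arrays of the second scan, whose part was not tested. Anxa1 on control replicate 3 read -2.30, with the next control at -6.39.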

How the results depend on the processing

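S100a11 kept its direction and call in all 23 alternatives, with values of 1.41 (normexp) to 2.31 and adjusted p up to 0.0201. The count of higher members besides S100b was 1, and 3 with array weights (S100a4, S100a11 and S100a16), and 2 (S100a4 and S100a11) in the first scan alone and with either the scan or the replicate number as a block; lower members stayed at 0. S100a4 passed with array weights (adjusted p = 0.0177) and with the replicate block (1.13, adjusted p = 0.0489). Same-numbered arrays correlated in their deviations by 0.36, 0.24, 0.06 and 0.55 for numbers 2 to 5. Klf4 replicates 2, 3 and 5 correlated best with the control of their own number. Number 4, whose arrays lay outside the quality limits, did not (0.06, against 0.12 with another control). The labels do not say what a number shares, so the numbers were used as a block in an alternative only. S100a16 (1.18) and S100a5 (-1.26) passed with array weights alone. S100b ranged from 1.85 with normexp to 4.54 without control replicate 3, and was 2.64 as the mean of its probes. The S100a5, S100a3 and S100a6 differences were -1.32, -1.24 and 0.35 without control replicate 5.

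Genes called higher numbered 961, and 1846 with array weights and 635 in the first scan alone (604 to 1221 leaving out 1 array). Genes called lower numbered 140, and 93 with the array median, 1269 with array weights, 48 in the first scan alone, 70 with no filter and 255 with the scan as a block (32 to 406 leaving out 1 array). Partner genes past the threshold stayed within 1.5 times of 5.

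Turned signs concerned small differences. Leaving out 1 array gave -0.17 to 0.068 for S100a13, -0.57 to 0.38 for S100a7l2, -0.43 to 0.15 for S100a9, -0.25 to 0.23 for S100z and -0.15 to 0.54 for Klf4. S100a7l2 was at -0.34 with array weights, -0.00432 with the authors' deposited values, -0.27 with dim values raised to the limit, -0.090 with the percentile over spots, -0.00167 with quantile normalization and -0.996 without both arrays numbered 4. S100z was at 0.088 with the authors' values, 0.21 with raised dim values, 0.090 with quantile normalization and 0.28 without both arrays numbered 4. Gfap was at 0.018 with the authors' values. The raised dim values were chosen after seeing the data, and so was the scaling used throughout: the percentile over spots, run first, called 734 genes higher and 197 lower, with S100a11 again the 1 member higher. Dim control signals limit the size of the S100b, Anxa1 and Atp2a1 differences.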
